A study of Mus musculus with 12 samples.

Results

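The expression of 7 genes, the CCN family members Ccn1, Ccn2, Ccn3, Ccn4 and Ccn5 and the YAP target genes Ankrd1 and Amotl2, was compared between angiogenic and non angiogenic islets of Rip1Tag2 mice. They were chosen by name, under the current symbols or, for 5 of them, the older ones (Cyr61, Ctgf, Nov, Wisp1 and Wisp2), and were found among the 19938 genes with a transcript cluster that carries only 1 gene symbol. Each of the 7 had 1 such cluster. The 12 arrays measured total RNA from 12 pools of islets, 6 angiogenic and 6 non angiogenic. All pools came from mice of 8 weeks of age, on a C57BL/6 background and with the Rip1Tag2 transgene, in which the insulin promoter drives the SV40 T antigen in beta cells. The control islets thus carried the same oncogene, and the pools were told apart only by the appearance of the islets. How many mice or islets made up a pool is not given in the sources used here, and p-values therefore speak only of the spread from pool to pool. In the fit over all 12 arrays, this spread also holds any difference between the sets of replicates described below. The labels call the tissue early tumor islets, and the mean log2 level of 9 beta cell markers lay between 11.71 and 12.03 on every array.

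CCN proteins are secreted modular proteins of the extracellular matrix that bind integrins, heparan sulfate and growth factors and act on adhesion, migration and matrix deposition. Ccn1 and Ccn2 are needed for normal vessels and are classical target genes of YAP and TAZ, the transcriptional co-activators that the Hippo kinase cascade keeps out of the nucleus and that bind DNA through TEAD factors. Both are also induced by TGF-β and by serum. Ankrd1, which encodes an ankyrin repeat protein of muscle and of stressed cells, and Amotl2, which encodes an angiomotin that holds YAP back at cell junctions, are commonly read beside them as YAP targets.

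A promoter sequence was at hand only for Ccn1, Ankrd1 and Amotl2, and all 3 are shown. Each holds letters that TEAD factors prefer. The sequences are the 250 bases before the start site on the strand of the gene, from RefSeq in build GRCm38.p6, at chr3:145649986-145650235 (minus strand) for Ccn1, chr19:36119845-36120094 (minus strand) for Ankrd1 and chr9:102717554-102717803 (plus strand) for Amotl2. Of the 7 genes 3 were matched, and Ccn2, Ccn3, Ccn4 and Ccn5 were not. Capitals mark CATTCC or, on the other strand, GGAATG.
Ccn1: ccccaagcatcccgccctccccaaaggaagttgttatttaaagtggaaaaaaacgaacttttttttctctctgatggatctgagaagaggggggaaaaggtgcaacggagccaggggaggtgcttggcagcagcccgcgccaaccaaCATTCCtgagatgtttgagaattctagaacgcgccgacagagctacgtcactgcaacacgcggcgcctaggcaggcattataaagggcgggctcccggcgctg
Ankrd1: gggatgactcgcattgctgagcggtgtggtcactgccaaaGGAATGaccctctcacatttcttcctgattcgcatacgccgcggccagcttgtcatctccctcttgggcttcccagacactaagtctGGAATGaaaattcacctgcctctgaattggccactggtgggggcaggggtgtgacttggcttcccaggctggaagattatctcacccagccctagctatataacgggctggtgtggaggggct
Amotl2: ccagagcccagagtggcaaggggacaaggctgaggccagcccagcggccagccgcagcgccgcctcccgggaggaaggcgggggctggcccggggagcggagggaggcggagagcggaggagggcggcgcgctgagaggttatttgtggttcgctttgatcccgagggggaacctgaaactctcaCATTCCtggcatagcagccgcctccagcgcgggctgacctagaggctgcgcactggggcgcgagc
Counted from the start site, the match lay at -103 to -98 in Ccn1 and at -65 to -60 in Amotl2, and Ankrd1 held 2 matches, at -210 to -205 and at -123 to -118. Of 32851 promoters of this length, 12.6% held the letters on either strand. Neither TGANTCA, the letters of AP-1 sites (in 6.75% of promoters), nor a CArG box, the site of serum response factor (in 1.47%), was found in these 3 windows, and no match overlapped another. A match describes the sequence and not the use of a site.

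Before the comparison, the arrays were seen to fall into sets. Replicates 1 to 3 of both groups lay below replicates 4 to 6 on the first principal component, which held 41.5% of the variance, and in a limma fit that also held the group, 7349 genes (36.9%) passed for the set. The labels do not say what the sets are. A figure legend of the study speaks of a pair of independent profiling experiments, without saying which arrays belong to which, so the 6 arrays of a group may not be 6 replicates of 1 experiment. Each set holds 3 arrays of each group. For the 7 genes, values within the sets are given beside those over all arrays, and for the lists the counts when the set is blocked. Array medians ran from 7.30 to 7.38, and 6 arrays a group limit the precision.

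Of the 7 genes, Ccn1, Ccn2 and Ccn4 were up-regulated in angiogenic islets and none was down-regulated, where a gene is called at a limma p that stays under 0.05 after Benjamini-Hochberg adjustment over all genes. Of all genes tested, 3.55% were called higher and 0.948% lower. At an unadjusted p under 0.05, 4 of the 7 were higher and 0 lower, against 7.76% and 6.59% of all genes. By the methods' t-test 3 were higher and 0 lower, against 2.94% and 0.903%. The 7 log2 differences had a median of 0.28, and those of all genes a median of -0.02. Ccn2 was the only member without overlap between the arrays of the groups, a property of 2.85% of all genes in this direction. Ccn3, Ankrd1 and Amotl2 lay close to 0, and Ccn5 lay between. Whole islets were measured, so more cells of a type and more RNA per cell cannot be told apart.

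**Figure D1:**
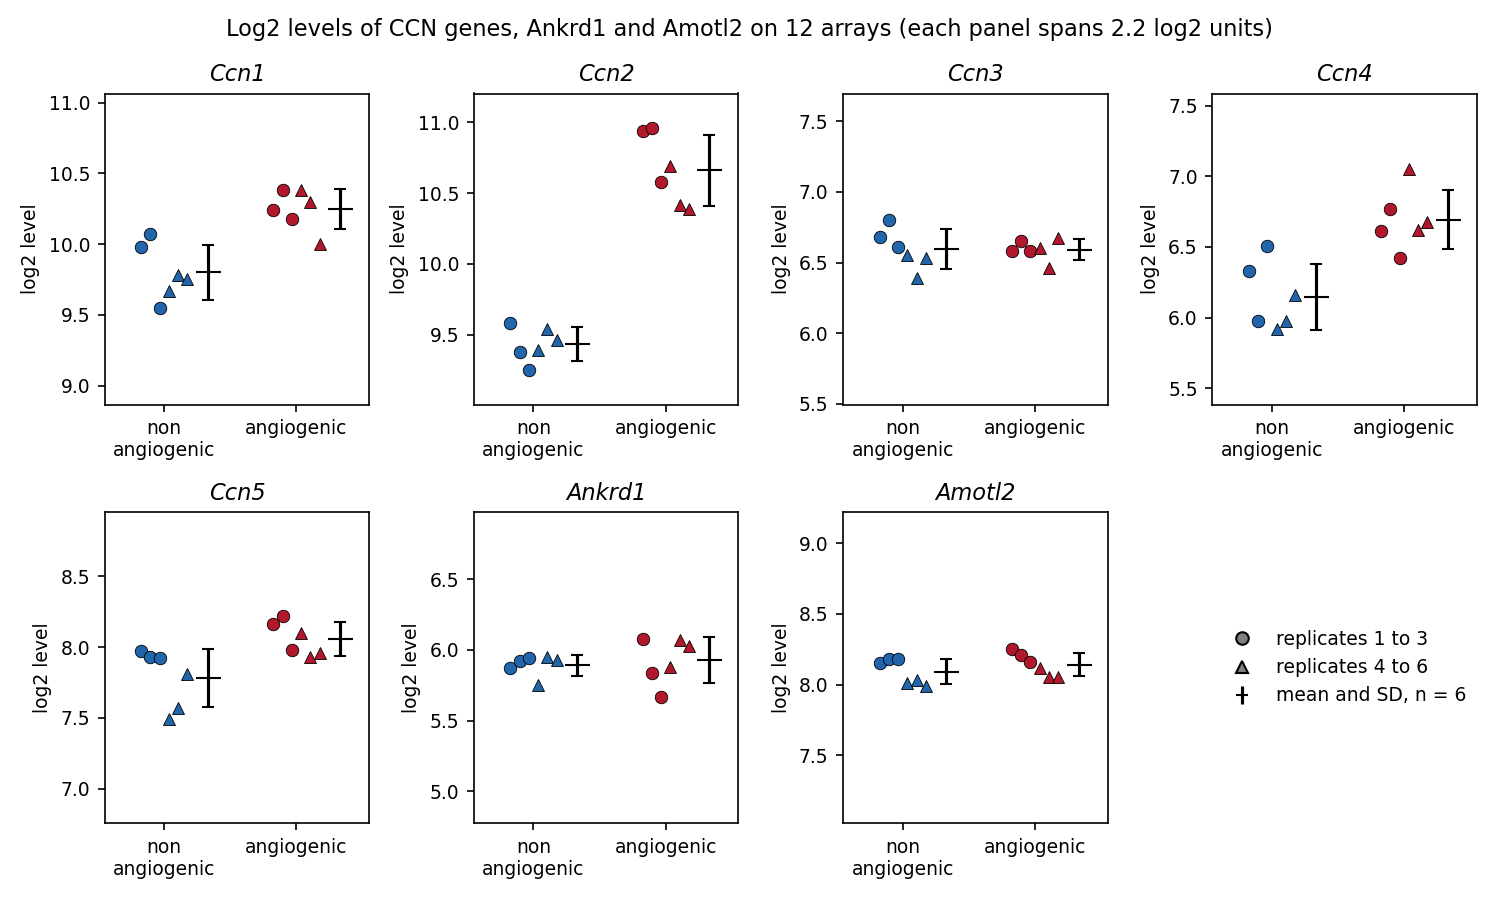
Log2 level (y axis) of the 7 genes on 12 arrays, with 1 point per array, blue for non angiogenic and red for angiogenic islets, with circles where the replicate number is 1 to 3 and triangles where it is 4 to 6. Lines give the mean and SD of 6 arrays, and every panel spans the same range of log2 units, so that the gap between the groups can be compared. The gap is widest for Ccn2, where the highest non angiogenic array (9.58) lies below the lowest angiogenic array (10.39).

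Ccn2 encodes the connective tissue growth factor, a matricellular protein made by fibroblasts, pericytes and endothelial cells. Its log2 level in non angiogenic replicates 1 to 6 was 9.58, 9.38, 9.25, 9.39, 9.54 and 9.46. In angiogenic replicates 1 to 6 it was 10.94, 10.96, 10.58, 10.69, 10.42 and 10.39. All 6 angiogenic pools thus lay above all 6 non angiogenic pools. The means were 10.66 ± 0.25 (SD, n = 6) and 9.43 ± 0.12 (SD, n = 6), a ratio of 2.34 with a log2 difference of 1.23 (95% confidence interval 1.01 to 1.44, adjusted p = 4.40e-06). Within replicates 1 to 3 the log2 difference was 1.42 (adjusted p = 2.36e-04), in a fit that called 2.37% of all genes higher. Within replicates 4 to 6 it was 1.03 (adjusted p = 5.70e-04), in a fit that called 3.11%. Over 12 fits without 1 array it stayed between 1.17 and 1.28. The study selected Ccn2, under the name Ctgf, and Ccn4, under the name Wisp1, for its matrix signature on these same arrays, so their direction is not independent evidence.

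Ccn4 encodes a Wnt-induced secreted protein of fibroblasts and bone-forming cells. Its log2 level in non angiogenic replicates 1 to 6 was 6.33, 5.98, 6.51, 5.92, 5.98 and 6.16. In angiogenic replicates 1 to 6 it was 6.61, 6.77, 6.42, 7.05, 6.62 and 6.68. The groups overlapped through replicate 3 of each, the highest non angiogenic and the lowest angiogenic array. The ratio was 1.46, with a log2 difference of 0.55 (95% confidence interval 0.31 to 0.79, adjusted p = 0.0098). The log2 difference was 0.33 within replicates 1 to 3, where it did not pass (adjusted p = 0.26), and 0.76 within replicates 4 to 6 (adjusted p = 0.0069). The signal of Ccn4 was below the median of gene means, a range in which RMA compresses differences.

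Ccn1 encodes CYR61, an integrin-binding protein that promotes the adhesion of endothelial cells and is induced within minutes of a stimulus. Its log2 level in non angiogenic replicates 1 to 6 was 9.98, 10.07, 9.55, 9.67, 9.78 and 9.75. In angiogenic replicates 1 to 6 it was 10.24, 10.38, 10.18, 10.38, 10.30 and 10.002. Angiogenic replicate 6 lay below non angiogenic replicate 2, and the other 5 angiogenic pools lay above every non angiogenic pool. The ratio was 1.36, with a log2 difference of 0.45 (95% confidence interval 0.25 to 0.64, adjusted p = 0.0085). The log2 difference was 0.40 within replicates 1 to 3 (adjusted p = 0.16) and 0.49 within replicates 4 to 6 (adjusted p = 0.022).

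Ccn5, a CCN protein that lacks the C-terminal domain of the others and restrains the growth of smooth muscle cells, did not pass over all arrays. In non angiogenic islets its log2 level was 7.97, 7.93 and 7.92 in replicates 1 to 3 and 7.49, 7.57 and 7.81 in replicates 4 to 6. In angiogenic islets it was 8.16, 8.22 and 7.98 in replicates 1 to 3 and 8.10, 7.93 and 7.96 in replicates 4 to 6. The groups overlapped across the sets but not within either set, as was also the case for Ccn1. With 3 arrays against 3, the share of all genes without overlap was not computed. The ratio was 1.21, with a log2 difference of 0.28 (95% confidence interval 0.09 to 0.47, adjusted p = 0.11). Blocking on the set gave an adjusted p of 0.013 and made Ccn5 the fourth gene called, in a fit that called 5.88% of all genes higher and 2.74% lower. The level of Ccn5 itself differed between the sets, by -0.22 in replicates 4 to 6 against replicates 1 to 3 (adjusted p = 0.017).

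Ccn3, the nephroblastoma overexpressed gene, whose protein often opposes that of Ccn2, averaged 6.59 ± 0.07 (SD, n = 6) over the angiogenic and 6.60 ± 0.14 (SD, n = 6) over the non angiogenic arrays on the log2 scale. Single arrays ran from 6.46 to 6.67 and from 6.39 to 6.80, so the angiogenic pools lay within the range of the non angiogenic pools. The log2 difference was -0.01 (95% confidence interval -0.15 to 0.13, adjusted p = 0.99). Its sign differed between the sets, with -0.10 in replicates 1 to 3 and 0.09 in replicates 4 to 6.

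Ankrd1 and Amotl2 did not pass. Ankrd1 had log2 levels of 5.87, 5.92, 5.94, 5.75, 5.95 and 5.93 in non angiogenic replicates 1 to 6. In angiogenic replicates 1 to 6 they were 6.08, 5.84, 5.67, 5.88, 6.07 and 6.03. The highest and the lowest array were both angiogenic, and the log2 difference was 0.03 (95% confidence interval -0.12 to 0.19, adjusted p = 0.91). Ankrd1, like Ccn3, gave a signal below the median of gene means. Amotl2 had log2 levels of 8.15, 8.18, 8.18, 8.01, 8.03 and 7.99 in non angiogenic replicates 1 to 6. In angiogenic replicates 1 to 6 they were 8.25, 8.21, 8.16, 8.12, 8.05 and 8.05. The groups overlapped in replicates 1 to 3 and did not overlap in replicates 4 to 6, a property whose share over all genes was not computed. Its level was 0.14 log2 units lower in replicates 4 to 6 than in replicates 1 to 3 (log2 difference -0.14, adjusted p = 0.0087), against a difference between the groups of 0.05 (95% confidence interval -0.07 to 0.17, adjusted p = 0.78). The interval of Amotl2 thus holds no rise as large as the estimate for Ccn1. Neither does that of Ankrd1, but its mean log2 level of 5.91 lay far below the median of gene means (7.76). RMA compresses differences in that range, so a rise of Ankrd1 could be understated. Of the 3 genes with the TEAD letters in the promoters shown, Ccn1 was called and Ankrd1 and Amotl2 were not.

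**Figure D2:**
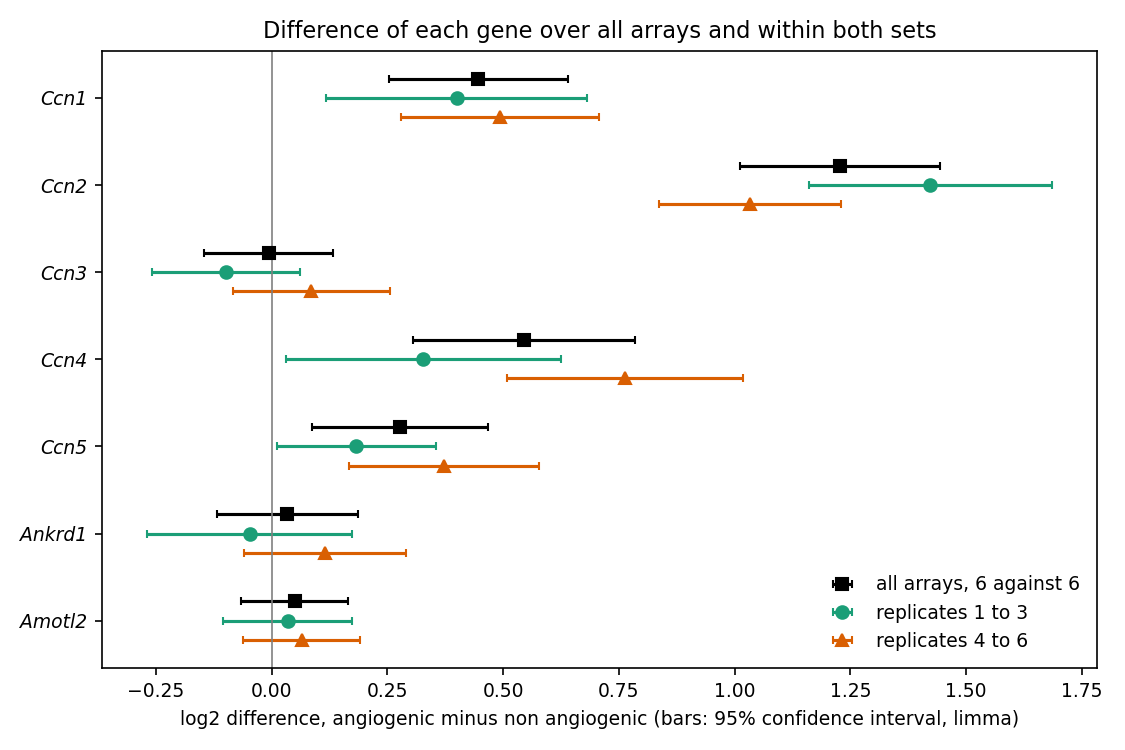
Log2 difference, angiogenic minus non angiogenic, of each gene over all arrays (black squares) and within replicates 1 to 3 (green circles) and 4 to 6 (orange triangles), with 95% confidence intervals from limma, not adjusted for the number of genes. The intervals of Ccn1, Ccn2, Ccn4 and Ccn5 lie above 0 in all 3 fits, while those of Ccn3, Ankrd1 and Amotl2 include 0.

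The angiogenic effect itself was compared between the sets with an interaction term. By limma none of the 7 genes passed after adjustment, and 1 of all 19938 genes did (0.00502%). At an unadjusted p under 0.05, Ccn2 and Ccn4 passed, as did 6.41% of all genes. The effect on Ccn2 was smaller in replicates 4 to 6 by 0.39 on the log2 scale (interaction -0.39, standard error 0.16, adjusted p = 0.77), and that on Ccn4 was larger by 0.43 (standard error 0.19, adjusted p = 0.78).

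Whether the members differed from each other was tested on the same arrays. For every pair of genes, the log2 ratio of the pair on each array was compared between the groups by an exact permutation test over 924 splits of the arrays (two-sided, 21 pairs, Benjamini-Hochberg). Of the 21 pairs, 15 passed at an adjusted p under 0.05. Ccn2 rose more than each of the other 6 genes, with p = 0.0022 in each exact test, the smallest p that the splits allow (adjusted p = 0.0065). Its excess was 0.78 log2 units over Ccn1, 0.68 over Ccn4 and 0.95 over Ccn5. Ccn1 and Ccn4 were not told apart, with Ccn1 minus Ccn4 at -0.10 (exact permutation test, p = 0.55, adjusted p = 0.61). Ccn5 differed from Ccn3 by 0.28 and from Amotl2 by 0.23 (Ccn3 minus Ccn5 -0.28, adjusted p = 0.010 and 0.0083 by exact permutation), and did not pass against Ankrd1 (0.24, adjusted p = 0.080). Ccn3, Ankrd1 and Amotl2 were not told apart in any of their 3 pairs. The signals of Ccn3, Ccn4 and Ankrd1 lay below the median of gene means, where RMA compresses differences. How far this shaped the pairs that hold these genes was not tested.

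**Figure D3:**
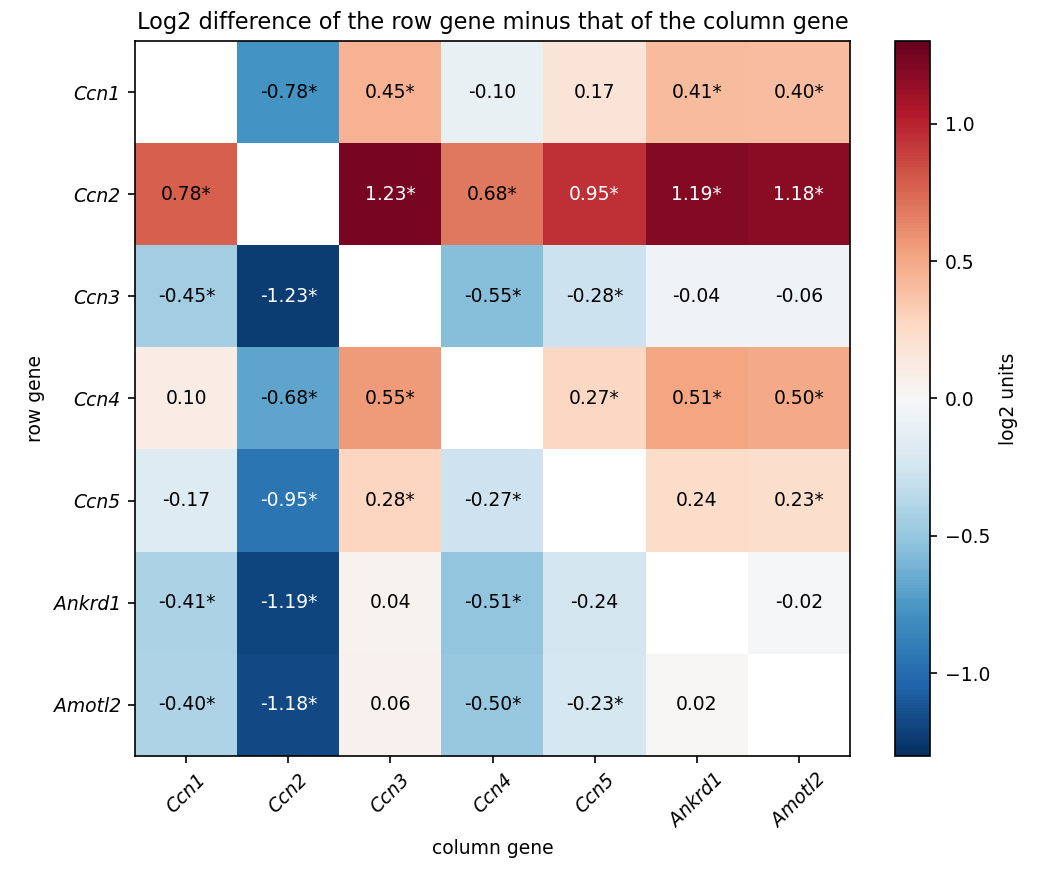
Difference between the log2 differences of 2 genes, row gene minus column gene, in log2 units by colour and number. A star marks an adjusted p under 0.05 by the exact permutation test. The row of Ccn2 is positive and starred against all other genes, from 0.68 against Ccn4 to 1.23 against Ccn3.

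Other known YAP and TAZ target genes were taken from a list of 18. By limma 6 of these were up-regulated and 0 down-regulated, with a median log2 difference of 0.13 against -0.02 over all genes. Without adjustment these counts were 8 and 0, by the methods' t-test 6 and 0, and with the set blocked 7 and 0. The shares of all genes are those given with the 7 genes, 3.55% higher and 0.948% lower for the calls and 7.76% and 6.59% without adjustment. The 6 genes had no overlap between the groups, a property of 2.85% of all genes in this direction. Ccdc80, the gene of a secreted protein that binds the matrix, was 2.67-fold higher (adjusted p = 1.65e-05). Myof, the gene of the membrane repair protein myoferlin, was 1.70-fold higher, and Axl, a receptor tyrosine kinase gene, 1.69-fold. Igfbp3, the gene of a binding protein of insulin-like growth factors, was 1.34-fold higher (adjusted p = 0.0071), and the remaining genes called were Crim1 and Lats2, at 1.27-fold and 1.25-fold. Rbms3, an RNA-binding protein gene, had the largest difference among those that did not pass, 0.20 (standard error 0.06, adjusted p = 0.096), and passed with the set blocked (adjusted p = 0.025). Like the members, the list was thus split, with 12 of 18 genes not called. Promoters were at hand for 5 of the 6 genes called, of which 2 held the TEAD letters, and for 7 of the other 12, of which 1 did. Counted by gene in the same way, 3880 of 27025 genes held them in at least 1 promoter.

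Of 28 genes of the Hippo pathway 27 were measured, and Stk3 had no row with a single symbol. By limma 7 were up-regulated and 0 down-regulated, around a median log2 difference of 0.09. Without adjustment these counts were 9 and 0 (7.76% and 6.59% of all genes), by the methods' t-test 6 and 0 (2.94% and 0.903%), and with the set blocked 8 and 0 (5.88% and 2.74%). Wwtr1, which encodes the co-activator TAZ, rose from 7.88 ± 0.09 (SD, n = 6) to 8.38 ± 0.10 (SD, n = 6) on the log2 scale, that is 1.41-fold (adjusted p = 9.35e-05). Yap1 was 1.16-fold higher (adjusted p = 0.025), but its call was lost without non angiogenic replicate 4, 5 or 6 or angiogenic replicate 2, 4, 5 or 6, with adjusted p up to 0.067. Of the partners that carry them to DNA, Tead1, Tead3 and Tead4 had log2 differences of 0.01, 0.04 and 0.01, and Tead2 had 0.21 (standard error 0.08, adjusted p = 0.25), so no TEAD gene passed. Vgll3, which encodes a competing TEAD partner, was 1.49-fold higher (adjusted p = 0.0020). Upstream, Wwc2, a scaffold gene that promotes LATS activity, was 1.31-fold higher (adjusted p = 0.0022). The atypical cadherin gene Dchs1 was 1.33-fold higher (adjusted p = 0.023), a call lost without non angiogenic replicate 6 or angiogenic replicate 1 (adjusted p up to 0.056). Its partner Fat4 differed by 0.25 on the log2 scale (standard error 0.13, adjusted p = 0.45), and passed when the set was blocked (adjusted p = 0.017). Of the inhibitory kinases, Lats2 is itself a YAP target and was called in both lists.

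For known CCN receptors 12 genes were analysed. By limma 6 were up-regulated and 0 down-regulated, around a median log2 difference of 0.22. Against the same shares of all genes, these counts were 7 and 0 without adjustment, 6 and 0 by the methods' t-test and 7 and 0 with the set blocked. Itga5, the alpha subunit of the fibronectin receptor, was 1.69-fold higher (adjusted p = 4.22e-05). Lrp1, an endocytic receptor gene that binds CCN2, was 1.51-fold higher (adjusted p = 6.09e-05), and the integrin genes Itga6 and Itgb5 were 1.28-fold and 1.23-fold higher. Itgb2, a subunit of leukocyte integrins, differed by 0.26 on the log2 scale and missed the threshold (adjusted p = 0.052), which it passed with the set blocked (adjusted p = 0.0068).

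**Figure D4:**
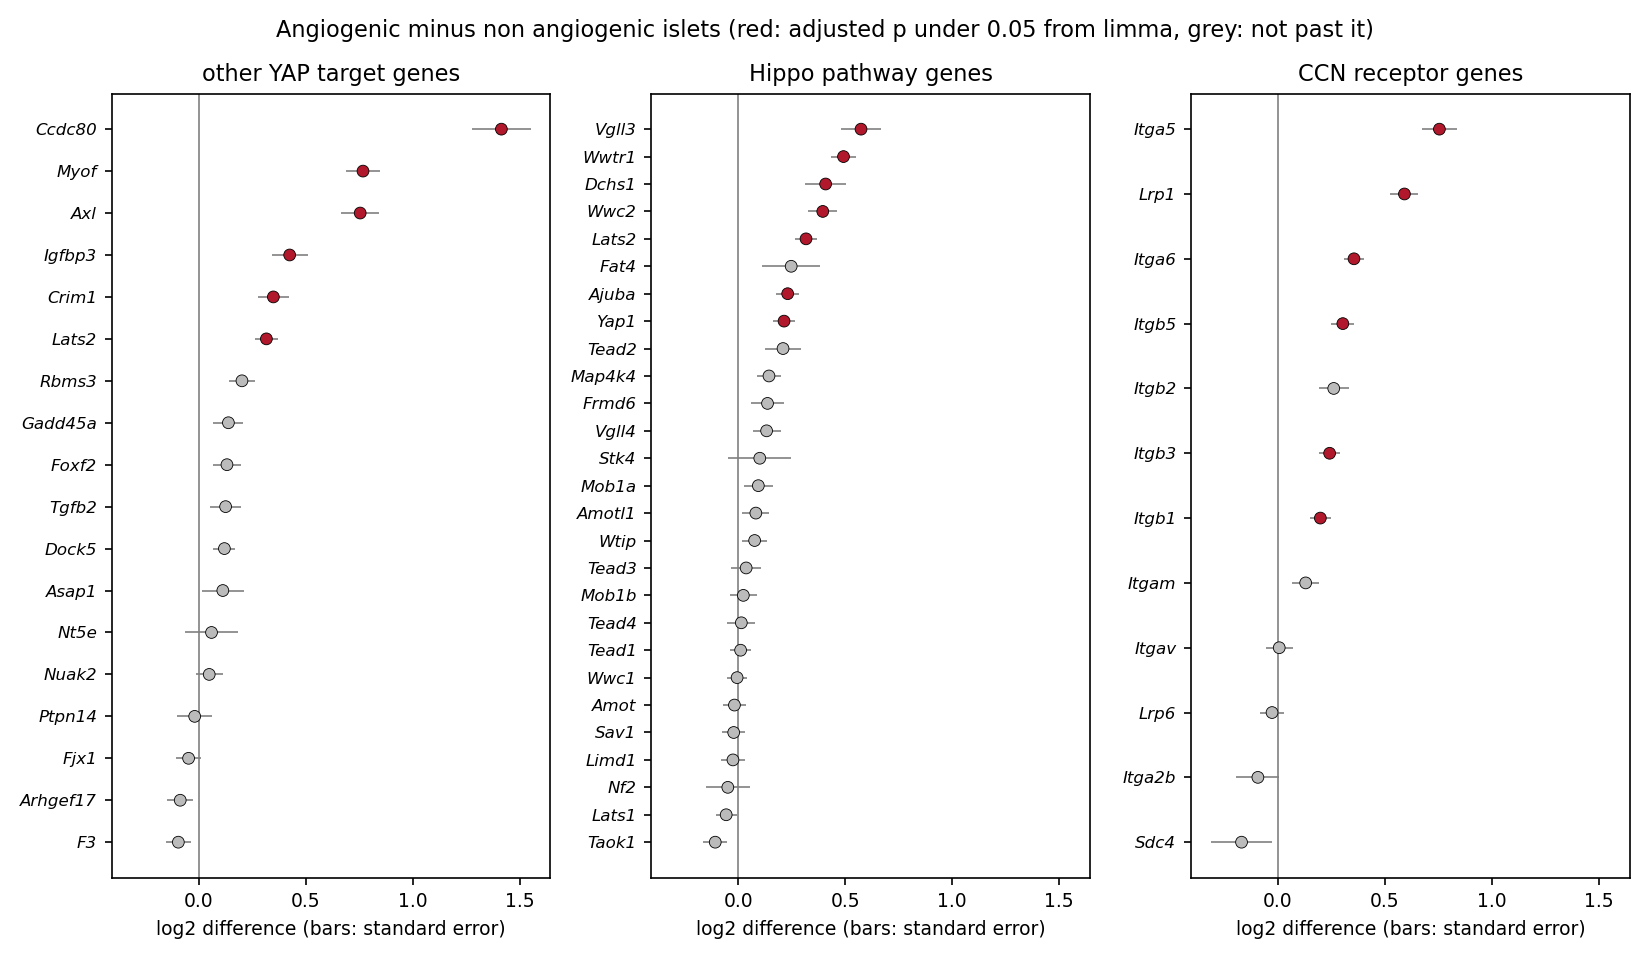
Log2 difference, angiogenic minus non angiogenic, of each gene of the 3 lists, with standard errors from limma as bars. Red points passed an adjusted p under 0.05 and grey points did not. In each list a part of the genes lies to the right of 0 and the rest clusters around it, with 6 of 18, 7 of 27 and 6 of 12 called.

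Most markers of stromal cells were also higher in angiogenic islets. Called higher were 10 of 10 pericyte and smooth muscle markers, 9 of 10 fibroblast markers, 9 of 10 endothelial markers and 6 of 10 macrophage markers. Of all genes, 3.55% were. With the set blocked these counts were 10, 10, 10 and 9, against 5.88% of all genes. The mean log2 level of the fibroblast markers lay between 9.14 and 9.42 in angiogenic and between 7.90 and 8.37 in non angiogenic islets. For pericyte and smooth muscle markers these ranges were 8.75 to 9.18 and 8.05 to 8.22, for endothelial markers 9.35 to 9.53 and 8.86 to 9.03, and for macrophage markers 8.32 to 8.80 and 7.94 to 8.24. From the first set to the other, the log2 difference of the mean went from 1.21 to 0.99 for fibroblast, from 0.83 to 0.80 for pericyte and smooth muscle, from 0.50 to 0.51 for endothelial and from 0.45 to 0.44 for macrophage markers. The log2 difference of Ccn1 went from 0.40 to 0.49, that of Ccn2 from 1.42 to 1.03 and that of Ccn4 from 0.33 to 0.76. For Ccn1, Ccn2 and Ccn4, none of these changes between the sets passed after adjustment (interaction term, limma). The changes of the marker means were not tested. Neutrophil, acinar and ductal markers gave 0 calls among 8, 8 and 6 measured (limma, with 0 higher and 1 lower at an unadjusted p under 0.05 over the 3 lists), and 1 of 9 beta cell markers was lower, or 3 of 9 with the set blocked and also 3 at an unadjusted p under 0.05. The shares of all genes that were lower were 0.948% by limma, 2.74% with the set blocked and 6.59% at an unadjusted p under 0.05. The acinar mean ran from 8.15 to 11.8 in angiogenic and from 7.93 to 12.9 in non angiogenic islets, so that exocrine RNA varied widely between pools of both groups. The part of these cell types in the results above was not tested.

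The genes with the most similar profile were ranked by Pearson's r to each called member over the 12 log2 levels, members aside. As group and set both shape these levels, r is given as a description. Ccn2 was followed most closely by Tgm2, a transglutaminase gene (r = 0.98, Spearman's rho 0.92), Lrrc32, whose protein docks latent TGF-β on cells (r = 0.98, rho 0.96), and Nid1, the gene of the basement membrane linker nidogen 1 (r = 0.98, rho 0.92). Ccn1 was followed by the chemokine gene Cxcl14 (r = 0.94, rho 0.96), the protease gene Adamts1 (r = 0.93, rho 0.94) and the receptor gene Lilr4b (r = 0.93, rho 0.92). Ccn4 was followed by Gbgt1 (r = 0.95, rho 0.93), by Wwtr1, the TAZ gene of the Hippo list (r = 0.94, rho 0.97), and by Vstm4 (r = 0.93, rho 0.92). With the means of each group in each set removed, r lay between 0.67 and 0.83 for the genes near Ccn2, between 0.84 and 0.93 for those near Ccn1 and between 0.72 and 0.90 for those near Ccn4.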

How the data were processed

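Affymetrix mouse gene arrays were used by the authors for total RNA of 12 islet pools, 6 per group. As deposited by them, each transcript cluster has a log2 level on each array, made by RMA in Affymetrix Expression Console according to the submitters' processing notes. RMA equalises the arrays and compresses weak signals. No source used here gives the tool version or says if RMA ran on all 12 arrays at once.

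Clusters were named through the platform annotation. Of 35556 clusters, 21789 had 1 symbol, 1621 several and 12146 none in the annotation used here. The brightest cluster was taken for the 999 genes with several, and the RefSeq table of GRCm38.p6 changed 0 symbols. Groups and replicate numbers came from the sample titles, and no 2 arrays were alike beyond a correlation of 0.998. With R 4.3.3 and limma 3.58.1, lmFit and eBayes compared 6 with 6 arrays without covariates, two-sided, adjusted by Benjamini-Hochberg over 19938 genes, with a threshold of 0.05. The fit was tested on simulated data that held no difference between the sets, unlike the arrays, so the test does not cover that difference. Members, lists and tests were chosen with earlier results of these data known, and the pair test after the values were seen. Named were all members, per list the 4 genes past the threshold that differed most and the 1 not past it that did, Yap1, Wwtr1 and the TEAD genes, and 3 genes most like each called member. Crim1, Lats2, Itgb1 and Ajuba were added after their values were seen. Ratios are 2 to the power of the log2 difference. Alternatives were the methods' t-test, a limma trend, weights for arrays, centring on medians, quantile normalization, a filter on dim genes (mean below the median of gene means), averaging a gene's clusters, replicate or set as a block, each set alone, acinar markers as a covariate and leaving out each array. RT-qPCR, stainings and human cohorts were not analysed here.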

Additional observations from a re-analysis of the deposited data

Results flagged for a closer look

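In 1 of 14 groups of 6 arrays (7 genes in both groups) an array stood apart from the others. For Ankrd1 in non angiogenic islets, replicate 4 had a log2 level of 5.75 against 5.87 for the nearest array, a gap of 0.636 of the range of the group. Chance gives such a gap in about 1 of 20 groups. Without this array the log2 difference of Ankrd1 was 0.0059 (adjusted p = 0.97 from limma) and did not pass.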

How the results depend on the processing

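Under the 24 alternatives run, the call of Ccn2 did not change, and its log2 difference stayed between 1.03 and 1.42. Without 1 array in turn, the number of members higher was 3 in all 12 fits, that of YAP targets 6, that of Hippo genes 5 to 7 and that of CCN receptor genes 5 to 7. In replicates 1 to 3 alone, with 3 arrays a group, 1 member was higher, as Ccn1 (0.40) and Ccn4 (0.33) did not pass, and 3 CCN receptor genes and 4 Hippo genes were. In replicates 4 to 6 alone 4 Hippo genes were higher. Without dim genes 2 Hippo genes were, since 5 of the 7 called lay below the filter, as did Ccn4. Ccn3, near 0 throughout, turned its sign with array weights (0.010), with acinar markers as a covariate (0.0044), in replicates 4 to 6 alone (0.0863) and in 3 of 12 fits without 1 array (-0.0475 to 0.0356 over the 12). Ankrd1 turned in replicates 1 to 3 alone (-0.0472). Neither passed in any of these. Ccn5 passed with acinar markers as a covariate (adjusted p = 0.015 from limma). The 15 pairs of members were 16 when arrays were split within the sets only, 14 after quantile normalization, and 14 to 15 without 1 array, alternatives chosen after seeing the data.

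Same-numbered arrays of the groups deviated together with correlations from 0.03 to 0.54, and from -0.34 to 0.12 with the set means removed, and 2 of 6 non angiogenic arrays correlated best with their own number, so the numbers were not taken as pairs. With the replicate block 4 members were higher, Ccn5 being added (0.28, adjusted p = 0.031 from limma), and 7 YAP target, 8 Hippo and 7 CCN receptor genes. The share of all genes called with the replicate block is not given here, so these counts have no background to be read against.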

Other observations

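Ccn6, the remaining CCN gene on the arrays, is no member of the set described above and was looked at after the other values were seen. Its log2 level ran from 6.60 to 6.84 in angiogenic and from 6.64 to 6.79 in non angiogenic islets. The log2 difference was -0.01 with a standard error of 0.05 (adjusted p = 0.95 from limma).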
